A study of Caenorhabditis elegans with 4 samples.

Results

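The regions described are the MML-1 binding peaks of Caenorhabditis elegans that lie on the X chromosome. They were chosen by chromosome alone, with no use of their measured values, and number 298 of the 1397 peaks in the deposited lists. Replicate A gave 140 of them and replicate B gave 158. The peaks of chromosomes II to V, 411 in replicate A and 477 in replicate B, are the comparison. The study mapped MML-1 in wild-type larvae of the third stage (L3) by chromatin immunoprecipitation and sequencing (ChIP-seq) with an antibody to MML-1. Larvae synchronised at L1 grew for 36 h at 20 °C on plates with OP-50 bacteria, were fixed for 30 min in 2% paraformaldehyde and were sheared by sonication. The series has 2 ChIP samples and 2 input DNA samples, each labelled replicate A or B, all of the same genotype and stage, and whole animals were used, so all tissues are mixed. The labels do not say whether A and B came from separate cultures, and their spread may be technical. Input DNA enters below only through the control values of the peak calls.

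MML-1 belongs to the Myc and Mondo family of basic helix-loop-helix leucine zipper proteins and acts with the Max-like partner MXL-2, and the pair is known for roles in metabolism, longevity and cell migration. Its mammalian relatives MondoA and ChREBP regulate genes in response to glucose. The X chromosome of the worm is the sex chromosome. In hermaphrodites, which carry a pair of X chromosomes, a condensin-containing dosage compensation complex binds along both and lowers their transcription. X also carries few germline genes, and its genes are spread more evenly along its length than those of the autosomes.

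Replicate A rested on 2694061 distinct ChIP tags, 12.8% of the tags given to the peak caller, and replicate B on 2107570, or 6.92%, per the file headers. Each peak has a width, a summit, a pileup (the number of tags, taken at the modelled fragment length of 81 bp in A and 72 bp in B, over the summit) and a fold enrichment over the local control. All of these are the authors' values for each peak, and positions are on the ce10 build. The file headers do not tell which input sample was the control for A or for B, and this bears on each comparison of control or fold between A and B. The comparisons of X with II to V are descriptions with no test. Peaks of 1 list are not replicates, and an exact two-sided permutation over 2 lists cannot give a p below 0.5.

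MML-1 peaks were spread along the whole of X, and were denser there than on any of the chromosomes II to V in both replicates. Replicate A had 7.90 peaks per Mb on X (exact Poisson 95% interval 6.65 to 9.32), against 6.09 (5.52 to 6.71) on II to V together. Replicate B had 8.92 (7.58 to 10.4) on X and 7.07 (6.45 to 7.73) on II to V. Single chromosomes of the comparison ran from 5.51 per Mb on III to 6.75 on IV in replicate A, and from 6.57 on IV to 8.44 on II in replicate B. In replicate B, chromosome II lay closest to X, and the intervals of X and of II to V overlapped in both replicates. The mean over replicates was 8.41 ± 0.72 peaks per Mb on X and 6.58 ± 0.69 on II to V (SD, n = 2). The ratio of X to II to V was 1.28 ± 0.025 (SD, n = 2). Without the 2 X domains richest in peaks, described below, the ratio was 1.07, and with the 2 richest domains of each chromosome left out it was 1.19. These intervals cover counting error only and treat neighbouring peaks as independent.

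The first X peak of replicate A lay at 292090 to 292219 with a pileup of 21 and a fold of 2.39. That of replicate B lay nearer the end, at 110471 to 110559, with a pileup of 33 and a fold of 10.2, and had no counterpart in A. The last peak was at 17640808 to 17641208 in A, with a fold of 7.78, and at 17640791 to 17641212 in B, with a fold of 7.24. The last peaks therefore overlapped while the first did not.

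In 17 full windows of 1 Mb, replicate A had a median of 7 peaks (1 to 19) and replicate B a median of 8 (2 to 21). The window from 6 to 7 Mb was the richest in both lists, with 19 peaks in A and 21 in B. The window from 13 to 14 Mb had 16 in each. These 2 windows hold the 2 domains with the most peaks. The window from 10 to 11 Mb differed most between the replicates, with 10 peaks in A and 18 in B, of which 6 and 14 lay in domains. The poorest window was that from 3 to 4 Mb, with 1 peak in A and 2 in B. It contains most of the longest peak-free stretch of each list, 1140 kb between summits in A and 929 kb in B. In 15 of the 17 windows the counts of A and B differed by at most 2 peaks. The middle of X, taken as the central part when the chromosome is cut into 3 equal parts, held 37.1% of X peaks in replicate A (52 of 140, 95% Wilson interval 29.6 to 45.4%) and 41.8% in replicate B (66 of 158, 34.4 to 49.6%). On II to V the middle held 42.8% in A (38.1 to 47.7%) and 43.8% in B (39.4 to 48.3%). The intervals of X and of II to V overlapped in both replicates.

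Many X peaks lay in runs, as did many peaks of the other chromosomes. A domain is here a run of summits with steps of at most 5000 bp that holds at least 3 peaks of a replicate. On X, a domain held 52 of the 140 A peaks (37.1%, interval 29.6 to 45.4%) and 73 of the 158 B peaks (46.2%, 38.6 to 54.0%). Over all nuclear chromosomes 34.6% of the A list and 46.5% of the B list lay in domains, and on II to V 30.4% and 46.3% did. X was above the pooled II to V in A, with overlapping intervals (26.2 to 35.0% on II to V), and at the same level in B. In A, chromosome V exceeded X at 38.6%, and III was lowest at 10.5%. Peaks in a run of at least 2 made up 50.0% of X in A and 65.2% in B, against 52.8% and 67.3% on II to V. The median distance between a summit and the nearest other summit of its list was longer on X. It was 5132.5 bp against 3866 bp on II to V in A, and 1874.5 bp against 1190 bp in B. In A, III had a lower share in such runs (44.7%) and a longer distance (9781.5 bp) than X. The mean difference of 3.30 percentage points turned to -1.74 (0.39 in A and -3.87 in B) when the 2 domains richest in peaks were left out on each chromosome. It turned to -8.18 when they were left out on X alone, which by construction lowers only the X share. Replicate A formed 9 domains on X and replicate B 15. With both lists pooled before linking, X had 17 domains, of which 7 had at least 3 peaks in each replicate, 2 had them in A only and 8 in B only. II to V had 65 pooled domains, or 9.63 per 10 Mb against 9.59 on X, with 17 of the 65 reaching 3 peaks in both replicates. The number of domains per length was therefore alike, but 3 of the 17 X domains were over 10 kb long, against 3 of 65 on II to V. The longest on II to V, on chromosome V, spanned 14.0 kb and the longest on X 15.1 kb. The X domain with the most peaks held 27 over both replicates, and that of II to V held 14. Chromosome I, which is not in the comparison, had a domain of 22 peaks over both replicates at 7656470 to 7663912. On chromosome I, 48.0% of A peaks and 47.7% of B peaks lay in domains, above X in both lists.

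The X domain with the most peaks lay at 6735541 to 6750624, where 12 A peaks and 15 B peaks formed 10 shared sites. Peaks of A and B linked by overlap were joined into 1 shared site, represented by the pair with the longest overlap. Peaks covered 55.5% of this domain in A and 55.2% in B, and 11 of 12 peaks in A and 13 of 15 in B were shared. The local control lay at 1.00 to 1.27 times the genome background in A and at 1.00 to 1.21 times in B. The right edge carried the site of highest mean fold on X, at 6748884 to 6750624, where a peak of 1741 bp had a pileup of 60 and a fold of 18.2 in A and a peak of 1569 bp had 45 and 17.5 in B. Both lists also placed a fold above 11 at 6740972 to 6742598, with 12.6 in A and 11.0 in B. At 6742809 to 6744438 the folds were 16.5 in A and 13.5 in B, and at 6737298 to 6738230 they were 9.88 and 12.6. At 6735943 to 6736997 a peak of 965 bp in A, with a fold of 9.88, met 3 peaks of B, the longest of them 591 bp wide with a fold of 7.99. The same ground was thus cut into different numbers of peaks by the caller, and 4 of the 5 sites just named were higher in A by fold. A pair of B peaks at 6747179 to 6747479, with folds of 3.38 and 4.89, had no counterpart in A.

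The second of these domains lay at 13348345 to 13360847, with 11 peaks in each replicate and 9 shared sites over 12.5 kb. Peaks covered 37.9% of it in replicate A and 34.6% in replicate B, with the local control at most 1.35 times the genome background in A and 1.25 times in B. Its strongest site, at 13353283 to 13353976, had a pileup of 55 and a fold of 16.8 in A against 27 and 10.7 in B, with summits 11 bp apart. At 13358381 to 13359093 the folds were 10.32 and 10.28, which were alike. At 13356198 to 13356876 they were 10.5 in A and 8.75 in B. The median fold over the domain was 6.80 (4.19 to 16.8) in A and 6.26 (4.16 to 10.7) in B, so the ranges overlapped and the highest peak was in A. Together these 2 domains held 49 of the 298 X peaks (16.4%) and 19 of the 78 shared X sites, within 27.6 kb.

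Domains at 11785705 to 11789450 and at 14908117 to 14909328 were of another kind. The former had 5 peaks in each replicate and 5 shared sites, and the latter 4 peaks in each and 4 shared sites. None of their peaks was wider than 287 bp, with medians of 155 bp in A and 160 bp in B in the former and of 136 and 208.5 bp in the latter. All of them were shared. The local control was high, at a median of 5.01 times the genome background in A and 3.57 times in B in the former, and 5.79 and 3.76 times in the latter. The median fold was 4.48 in A and 9.11 in B in the former and 3.44 and 8.99 in the latter, so B was higher in both. The highest pileup on X in either list stood in the former, at 11787242 to 11787427, with 88 tags in A and 85 in B, at folds of 4.72 and 11.0. Pileups there were nearly equal while folds differed. The local control, which enters the divisor of the fold, was 17.8 tags in A and 6.79 in B. These are 7.63 and 4.17 times the genome background of each list, which was 2.34 in A and 1.63 in B.

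The fifth X domain with at least 3 shared sites lay near the right end, at 17630992 to 17641212, with 7 peaks in A and 5 in B. Of these, 3 in each list were shared. The site at 17636157 to 17636726 was its strongest in A, with a fold of 8.98 against 6.85 in B. Here peaks covered 17.1% of the domain in A and 13.4% in B, and the local control stayed at or below 1.11 times the genome background in A and 1.25 times in B. Of the 17 X domains, 6 held a peak whose control exceeded 2 times the genome background, and 18 of the 65 on II to V did. The 6 on X spanned at most 3.75 kb (median 1.44 kb), and the 11 without such a peak spanned up to 15.1 kb (median 5.87 kb). Shared runs of high control also occurred off X. That on V at 16707365 to 16709411 had 5 peaks in each list, all shared. Its median control was 3.66 times background in A and 2.13 times in B. The part of the control background in the runs of narrow peaks was not tested.

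**Figure D1:**
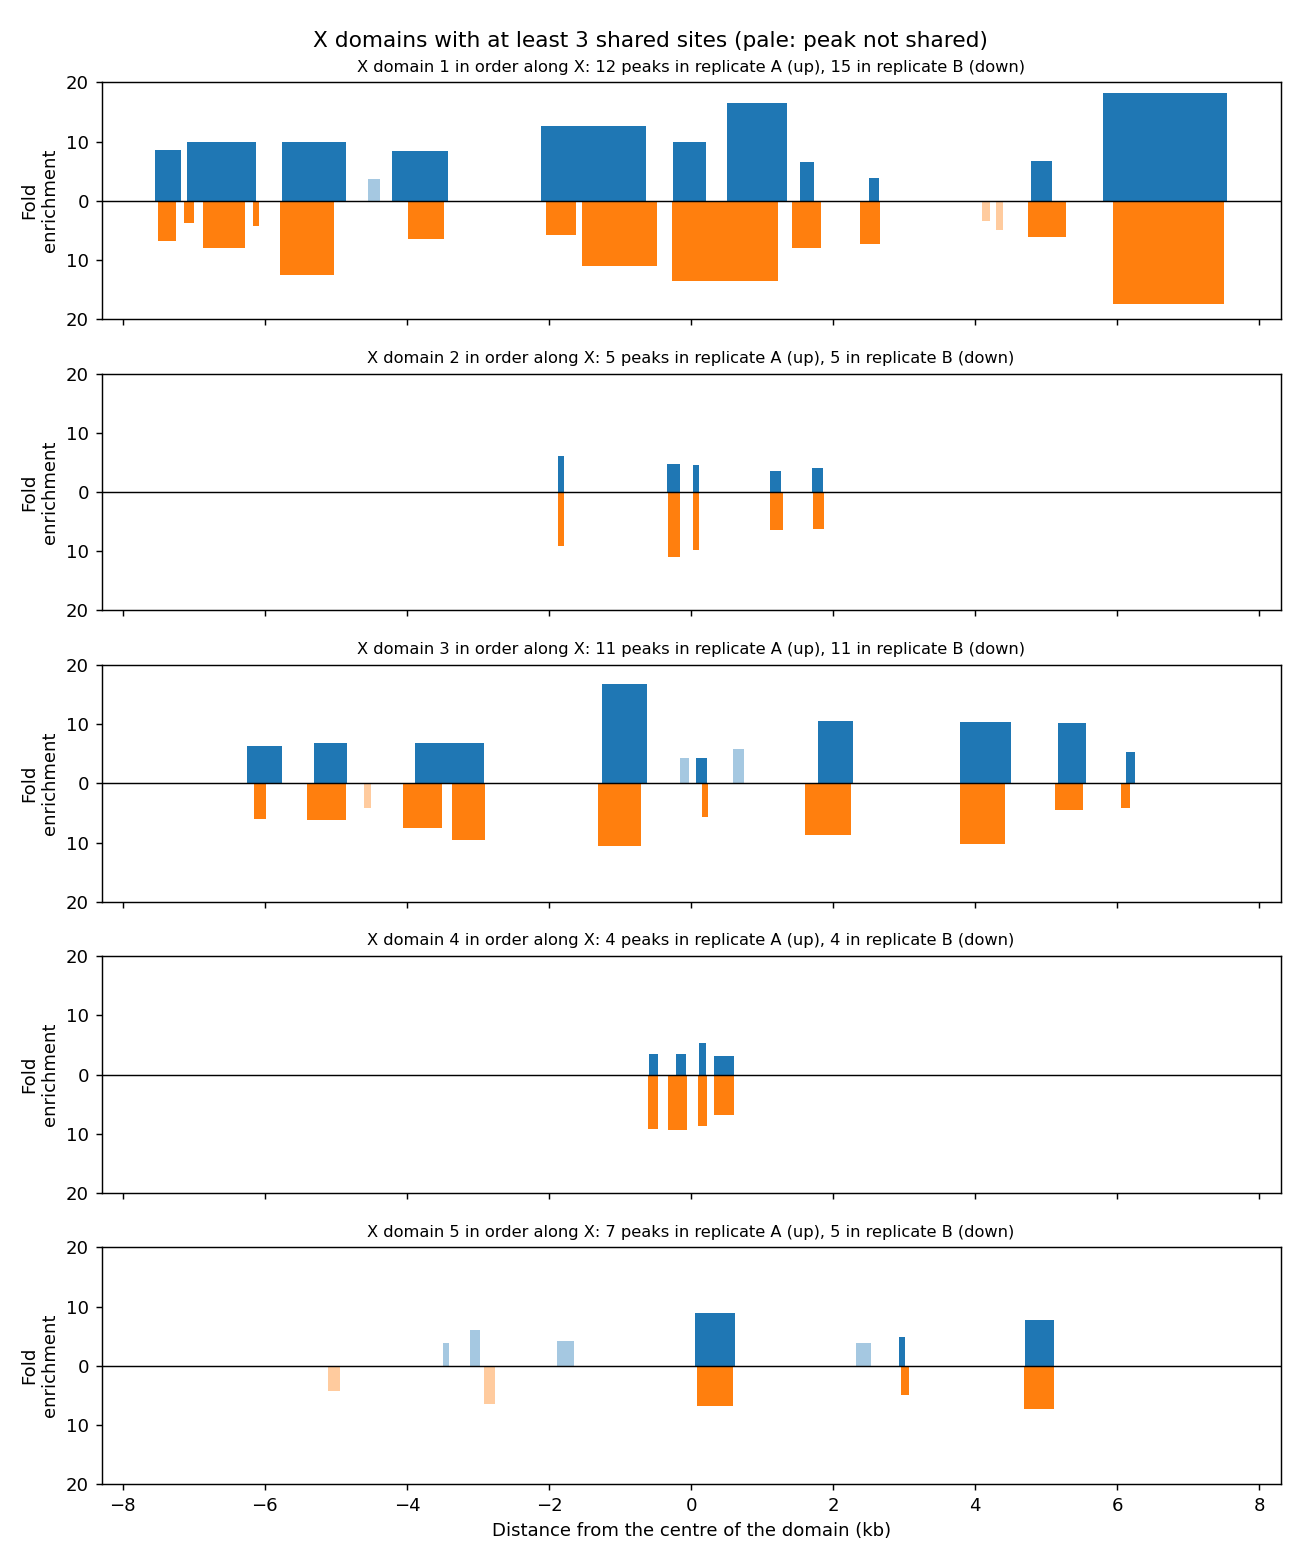
Fold enrichment (vertical axis, replicate A upward and replicate B downward) of each peak against its distance in kb from the centre of the domain, for the 5 X domains with at least 3 shared sites in order along X, with bar width equal to peak width (drawn at least 0.04 kb wide) and pale bars for peaks that were not shared. Domains 1 and 3 extend over 15.1 and 12.5 kb with wide peaks in both replicates, while the narrow peaks of domains 2 and 4 have a higher fold in B than in A.

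X peaks were wider than those of II to V by the median in both replicates, and wide peaks were commoner. The median width on X was 165 bp in replicate A (81 to 1741 bp) and 143 bp in replicate B (72 to 1662 bp), against 145 and 126 bp on II to V. No chromosome of II to V reached the X median, the highest being 157 bp on II in A and 133 bp on V in B. The ratio of X to II to V was 1.14 in each (1.14 ± 0.002, SD, n = 2), and it was 1.03 without the 2 X domains with the most peaks. In the upper 50% of each list by q it was 1.01 in A (226.5 against 225 bp) and 1.24 in B. Peaks over 500 bp made up 10.0% of X peaks in A (14 of 140) and 10.8% in B (17 of 158), against 5.35% and 5.45% on II to V. In A, single chromosomes of II to V ran from 2.63% on III to 9.41% on II, close to X. In B they ran from 3.48% on IV to 8.70% on III. All 14 and all 17 on X overlapped a peak of the other replicate, as did all 22 in A and 20 of 26 in B on II to V. The 2 domains held 9 of the 14 in A and 12 of the 17 in B. Without those domains the share on X was 4.27% in A and 3.79% in B, below the 5.35% and 5.45% of II to V, so the direction turned. With the 2 richest domains of each chromosome left out, II to V had 4.56% and 5.91%.

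The widest X peak of A was the 1741 bp peak at 6748884 to 6750624 already described. That of B was 1662 bp wide at 16930298 to 16931959, with a fold of 11.7, and met a peak of 1431 bp in A with a fold of 11.4. The summits of this last pair lay 875 bp apart, the longest distance at any X site. At the narrow end, 7 X peaks in A (5.0%) and 6 in B (3.80%) had the smallest width the caller gave, equal to the modelled fragment length, against 7.79% and 8.39% on II to V. X peaks covered 37.4 kb in A and 37.9 kb in B, or 0.211% and 0.214% of the chromosome. On II to V the covered share was 0.123% and 0.132%. The ratio was 1.67 ± 0.073 (SD, n = 2), 1.10 without the 2 X domains, which held 35.1% of the covered length of X in A and 33.4% in B, and 1.26 without the 2 richest domains of each chromosome.

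**Figure D2:**
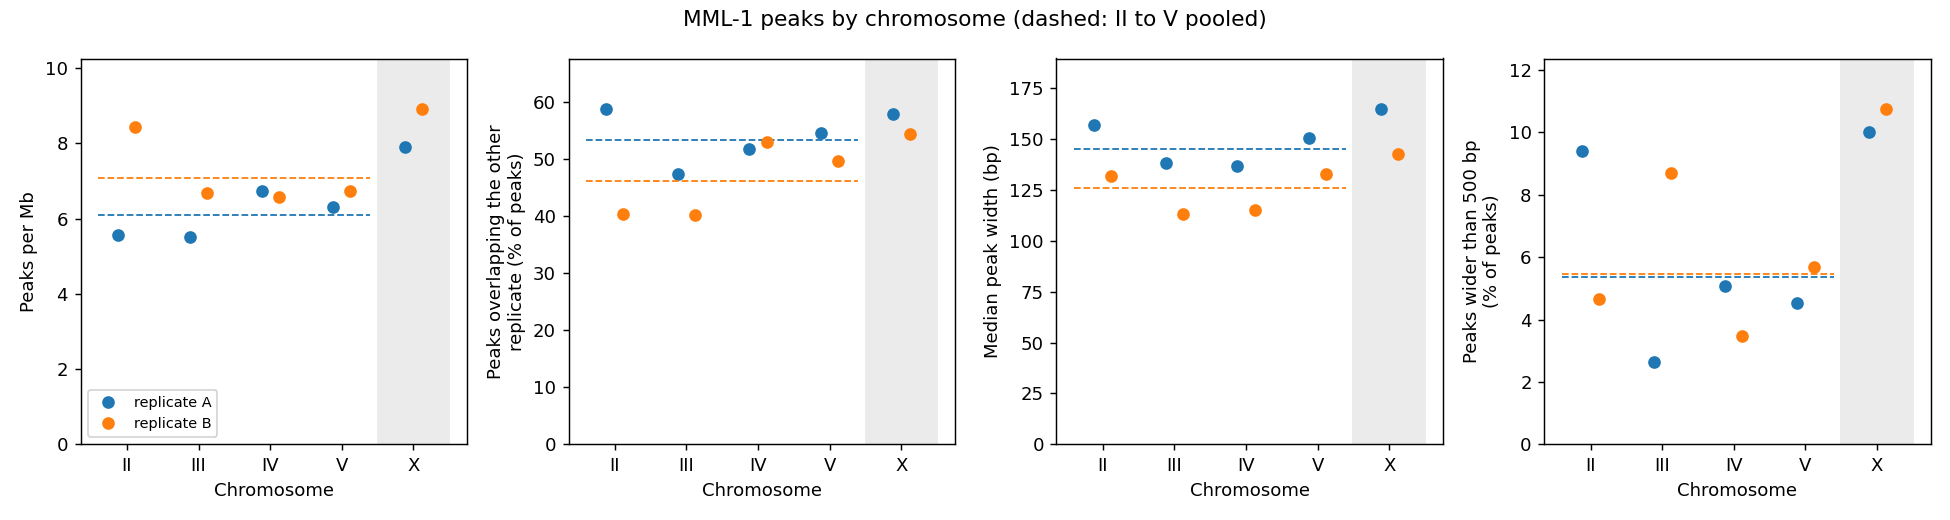
Peaks per Mb, percentage of peaks overlapping the other replicate, median peak width in bp and percentage of peaks over 500 bp (vertical axes) for chromosomes II to V and X, with 1 point per replicate and dashed lines for II to V pooled. X is the highest chromosome in both replicates for density (7.90 and 8.92 peaks per Mb), median width (165 and 143 bp) and peaks over 500 bp (10.0 and 10.8%), but not for overlap in replicate A, where II is higher.

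In median pileup and median fold, X peaks differed little from those of II to V, while the upper bounds of their middle 50% were higher in both lists. The median pileup was 17 tags on both in replicate A, and 15 on X against 14 on II to V in replicate B. The X pileups ran from 11 to 88 tags in A and from 8 to 85 in B. Their middle 50% lay between 14 and 31 tags in A, against 14 and 26 on II to V. In B it lay between 12 and 22.75 tags, against 11 and 20. The median fold was 4.65 on X against 4.53 on II to V in A and 5.71 against 5.33 in B, a ratio of 1.05 ± 0.032 (SD, n = 2). Chromosomes II and V exceeded X in A, with medians of 4.79 and 4.74. The middle 50% of X peaks lay between folds of 3.99 and 6.15 in A and of 4.57 and 7.46 in B. On II to V the same range was 3.89 to 5.79 in A and 4.46 to 6.69 in B, so the bulk of the distributions overlapped. The median −log10 q was 5.97 on X against 5.28 on II to V in A, and 6.80 against 5.45 in B. By this measure each chromosome of II to V lay below X in both lists. Chromosome I, which is not in the comparison, had 6.82 in A and 4.98 in B. The highest 25% of each list by q held 30.0% of X peaks in A and 30.4% in B, against 23.6% and 23.3% of those on II to V. Peaks whose control exceeded 2 times background made up 14.3% of X and 14.4% of II to V in A, and 11.4% and 11.7% in B, and the ratios of X to II to V without such peaks were 1.05 for fold and 1.28 for density.

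Overlap between the replicates was somewhat more frequent on X than on II to V. Of the X peaks, 81 in replicate A (57.9%, interval 49.6 to 65.7%) and 86 in replicate B (54.4%, 46.7 to 62.0%) met a peak from the other list, with 1 bp of overlap or more. Over all nuclear chromosomes it was 54.8% of replicate A and 49.1% of replicate B, and on II to V 53.3% (48.5 to 58.1%) and 46.1% (41.7 to 50.6%). The intervals overlapped in both replicates. In A, chromosome II had a higher share than X, at 58.8%, and in B the highest share among II to V was 53.0% on IV. Chromosome I, which is not in the comparison, was close to X in both lists, at 57.0% in A and 54.2% in B. The difference was 6.44 ± 2.64 percentage points (SD, n = 2), 2.997 with the 2 richest domains of each chromosome left out, and 0.23 with those of X alone left out. With a reciprocal overlap of 50% the shares were 40.7% and 36.1% on X and 33.3% and 28.7% on II to V.

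Sharing on X went with the rank of a peak and with its place in a domain. In replicate A all 42 X peaks in the highest 25% of the list by −log10 q were shared (interval 91.6 to 100%), and 6 of the 31 in the lowest 25% were (19.4%, 9.19 to 36.3%). For replicate B the same counts were 36 of 48 (75%, 61.2 to 85.1%) and 9 of 32 (28.1%, 15.6 to 45.4%). On II to V the highest 25% were shared at 94.8% in A and 73.0% in B, within the intervals of X. In domains of X, 75% of the peaks of A (39 of 52, 61.8 to 84.8%) and 61.6% of those of B (45 of 73, 50.2 to 71.9%) were shared. Outside domains the shares were 47.7% (42 of 88, 37.6 to 58.0%) and 48.2% (41 of 85, 37.9 to 58.7%). Without the 2 X domains richest in peaks, domain peaks were shared at 65.5% in A (19 of 29) and 46.8% in B (22 of 47), so that in B the share was no longer above that outside domains. On II to V the domain peaks were shared at 70.4% in A and 45.7% in B, and the peaks outside domains at 45.8% and 46.5%.

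**Figure D3:**
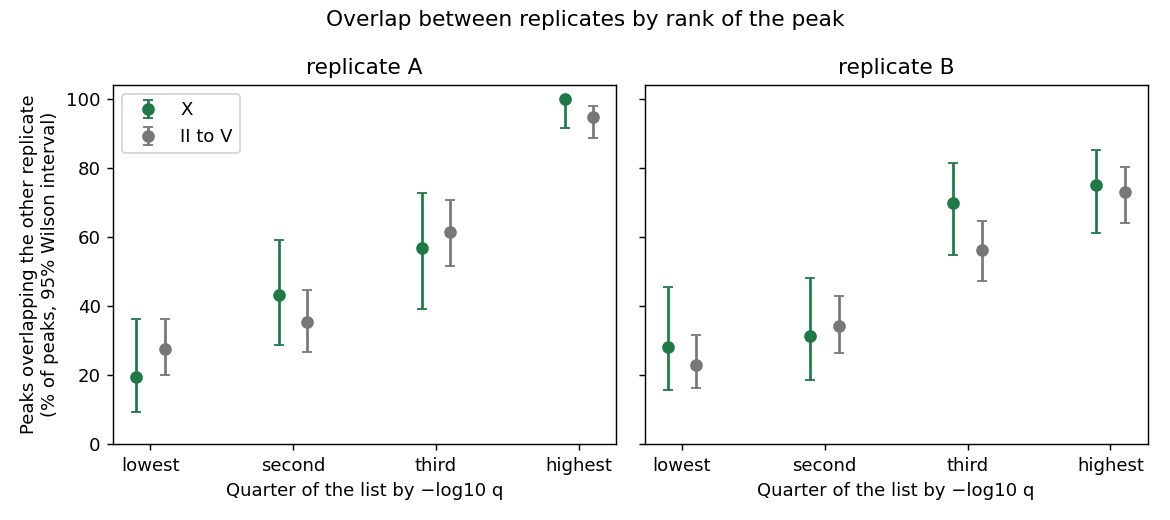
Percentage of peaks that overlap the other replicate by at least 1 bp (vertical axis, with 95% Wilson intervals) for X and for II to V, in 4 equal parts of each replicate's list ranked by −log10 q. On X the share runs from 19.4 to 100% in replicate A and from 28.1 to 75% in replicate B between the lowest and the highest part, and the intervals of X and of II to V overlap in each part.

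The X peaks without a counterpart were narrow and low. Unshared peaks had a median width of 125 bp and a median pileup of 14 tags in replicate A (59 peaks) and of 106 bp and 13 tags in replicate B (72 peaks). Shared peaks had 250 bp and 27 tags in A and 248 bp and 17 tags in B. Sharing asks for an overlap of at least 1 bp, which a wider peak meets more easily. The contrast in width is therefore set in part by the definition. A summit of the other replicate lay within 500 bp of 8 of the 59 (13.6%) and 8 of the 72 (11.1%), and within 5000 bp of 39.0% and 37.5%. Unshared peaks of II to V were much alike, at 116.5 bp and 14 tags in A and 107 bp and 13 tags in B, with 8.33% and 14.4% of them within 500 bp and 32.3% and 40.9% within 5000 bp. The 3 unshared X peaks of highest fold in A were at 6239226 to 6239363 (fold 6.66), at 17632992 to 17633133 (5.99) and at 13355183 to 13355341 (5.80). Those of B were stronger, at 112981 to 113071 (fold 11.1), 11886762 to 11886873 (10.3) and 110471 to 110559 (10.2). All 3 of B were at most 112 bp wide and belonged to domains of 3 peaks that had no peak in A. The nearest summit of A was 179138 bp from the first and 50647 bp from the second. Of the 17 pooled X domains, 3 had no peak in A, and none lacked peaks in B. On II to V, 10 of 65 had none in A and 1 had none in B.

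At the 78 shared X sites the signal of the replicates could be set side by side. The median distance between the summits of A and B was 21 bp, and it was at most 100 bp at 61 sites (78.2%), against a median of 35 bp and 78.0% at the 209 sites of II to V. A peak of each replicate met at 68 of the 78 X sites, and the other 10 joined more than 1 peak of a replicate. Sites numbered 4.40 per Mb on X and 3.10 on II to V. The 15 X sites of highest mean fold (geometric mean of A and B) ran from 8.21 to 17.9, and the median of all 78 was 6.29. Of these 15, 11 lay in domains, 8 of them in the 2 domains with the most peaks, and the fold was higher in A at 12. Of all 78 sites, 19 lay in those 2 domains, and the fold was higher in A at 38. Domains held 13 of the 18 sites with a control above 2 times background in either list, and 30 of the other 60. Of the 15, 4 stood outside domains. At 13328804 to 13329168 the fold was 15.3 in A and 6.74 in B, with pileups of 50 and 17. At 5164995 to 5165331 the folds were 10.4 and 8.63, and at 12627764 to 12628010 they were 11.1 and 6.09. The fourth of these, at 15810987 to 15811087, went the other way, with 7.81 in A and 18.5 in B, the highest fold on X in either list, where the local control stood at 3.51 times background in A. Among those in domains, at 16930298 to 16931974, in a domain of 2 peaks in A and 3 in B, the folds were 11.4 and 11.7. At 10331868 to 10332665 they were 10.2 and 9.90, and at 1477949 to 1478419 they were 11.7 and 6.76. Apart from the site at 15810987 to 15811087, the control behind these 15 reached at most 1.27 times background in A and 1.17 times in B.

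Sites whose control exceeded 2 times the genome background in either list, here called high-control sites, stood apart from the other X sites. They numbered 18 of 78 (23.1%), close to the 22.5% of II to V. Their fold was higher in B at all 18, with medians of 4.20 in A and 9.20 in B and a median ratio of B to A of 2.19 (1.32 to 3.60). The same held on II to V, where B was higher at all 47 such sites, with medians of 4.32 in A and 9.17 in B. At the other 60 X sites the medians were 6.43 and 6.14, the median ratio was 0.943 (0.441 to 1.94), and B was higher at 22. The pileups differed in another way. At the 18 sites the medians were close, at 50.5 tags in A and 48.0 in B, though single sites ran from 0.632 to 1.90 in the ratio of B to A. Pileups were lower in B at most of the 60, with medians of 21.5 and 16.0. The median ratio of B to A was 0.968 at the 18 sites and 0.750 at the 60, while distinct tags times fragment length stood at 0.695 in B relative to A. Summits lay within 10 bp of each other at 12 of the 18 sites and 10 of the 60. The 18 sites were also narrower, with median widths of 136 bp in A and 183 bp in B against 311 and 291.5 bp. The control kept 15399728 distinct tags in A and 27929584 in B, so it was deeper in B, where the ChIP kept fewer distinct tags. Since the local control enters the fold and also chose the 18 sites, their higher fold in B is a description. Its source, the depth of the control included, was not tested. The 5 of highest mean fold among them, in that order, were at 15810987 to 15811087, 5056580 to 5056978 (4.25 in A and 15.3 in B), 293363 to 293504 (5.42 and 11.2), 1375044 to 1375371 (6.38 and 9.19) and 11785705 to 11785791 (6.12 and 9.11).

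**Figure D4:**
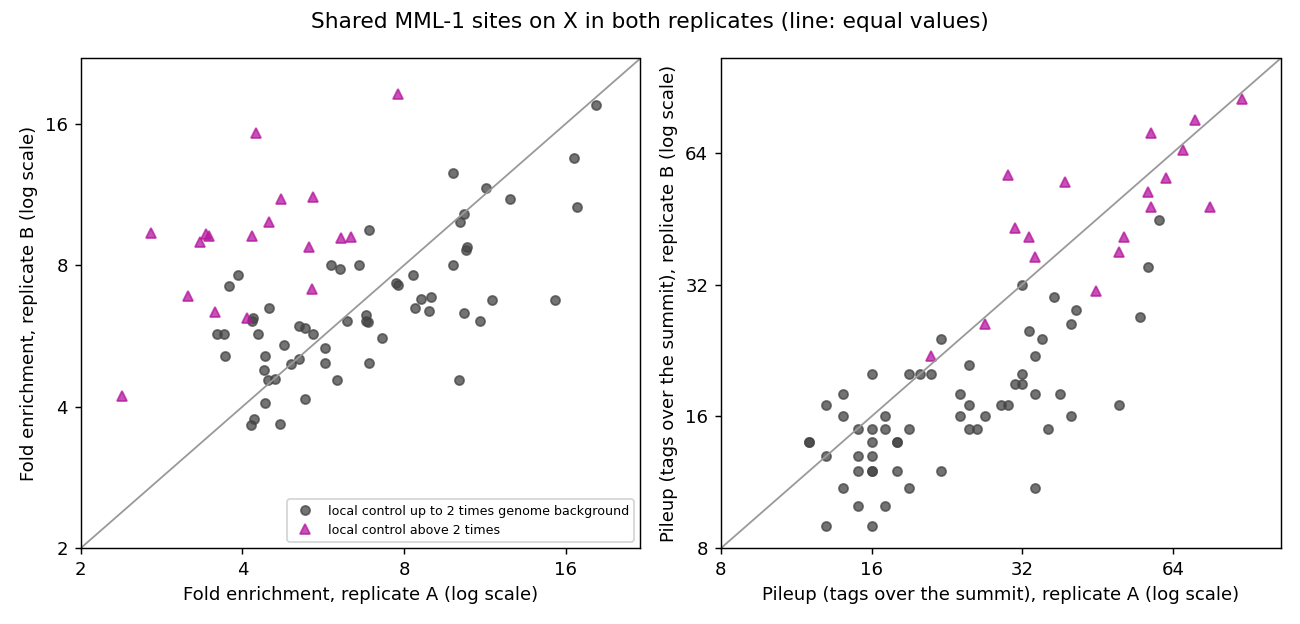
Fold enrichment (left) and pileup in tags over the summit (right) of the 78 shared X sites in replicate A (horizontal axis) and replicate B (vertical axis), on log scales, with triangles for the 18 high-control sites (control over 2 times background in either replicate) and a line of equal values. All 18 triangles lie above the line for fold, and they lie on both sides of it for pileup.

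Across the 60 X sites of lower control, log2 fold in A and B had a Pearson r of 0.70 and fold a Spearman rho of 0.64, against 0.60 and 0.55 at 162 such sites of II to V. Over all 78 X sites r was 0.39 and rho 0.33. Pileups, which do not include the control, had an r of 0.81 and a rho of 0.78 over all 78 sites on the same scales, against 0.85 and 0.79 on II to V. At the 60 X sites of lower control they were 0.69 and 0.65, close to those of fold. These are descriptions across sites that share the same 2 libraries and that lie partly in the same domains, and they carry no p.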

How the data were processed

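Peaks were called on the ce10 build with MACS2 2.1.0.20151222 in each replicate against 1 control, keeping 1 tag at any position of a strand and a q of at most 0.05, per the file headers and the submitters' processing notes. Bowtie was named for alignment, with no version. The deposited pileup is a signal in tags. The deposited fold divides pileup plus 1 by local control plus 1 (a ratio, as the caller defines it), and the local control was solved from it and set against the lowest value in its list. The −log10 q values, deposited by the authors beside −log10 p, ranked peaks. A further list for each replicate, holding peak positions, was left out. Positions are 1-based on ce10. Chromosome lengths came from general knowledge of ce10. With no genome of that build used here, peaks were not placed on genes or searched for E-boxes.

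Overlap, domains and sites were computed with pandas 2.3.3, numpy 2.4.6 and scipy 1.17.1 under Python 3.11.15, drawn with matplotlib 3.10.9, and checked on simulated data with planted overlaps and domains. Intervals for shares are 95% Wilson intervals, for counting error only. The regions named were the X domains with at least 3 shared sites, the 15 X sites of highest mean fold, the 3 unshared peaks of highest fold, the widest, highest, first and last peaks, and the 5 highest high-control sites. A few further peaks of these domains were named after their values were seen. Members, lists and alternatives were chosen with earlier results of these data known.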

Additional observations from a re-analysis of the deposited data

How the results depend on the processing

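Of 70 values recomputed on both replicates, 36 stayed within the spread between replicates or, for counts, within 1.5 times, 28 moved further and 6 turned direction. With 2 replicates, leaving out either cannot move a mean beyond their SD, so those values say nothing of stability. The cause of these changes was not tested, beyond the peaks that each alternative removes by construction. Replicate B kept fewer distinct tags than A and has more peaks, and the part of depth in this was not tested. The share of peaks over 500 bp, the covered length, the sharing inside X domains without the 2 richest, and the alternative that drops the 2 richest domains of each chromosome were chosen after seeing the data. The E-box count was not run, with no ce10 genome used here. No paired analysis was possible because the results come from peak lists, without any test between ChIP and input.

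Without the 2 X domains with the most peaks, the ratios of X to II to V were 1.07 for density, 1.03 for width, 1.00 for fold and 1.10 for covered length. The difference in shared peaks was 0.229 percentage points, that in peaks within domains turned to -8.18, and that in peaks over 500 bp turned to -1.37. Without the 2 richest domains of each chromosome, the ratios were 1.19, 1.05, 1.01 and 1.26, and the differences 2.997, -1.74 and -1.20.

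At a fold of at least 4 the ratios were 1.34 for density, 1.19 for width and 1.75 for covered length, and the difference in peaks over 500 bp was 5.77. In the upper 50% of each list by q they were 1.45 for density, 1.13 for width (1.01 in A and 1.24 in B), 1.10 for pileup, 1.01 for fold and 1.89 for covered length, with differences of 15.1 in domains and 8.24 over 500 bp. Without high local control the width ratio was 1.17 and the difference over 500 bp 5.69. With each domain counted as 1 peak the density ratio was 1.21. With chromosome I added to II to V, the ratios were 1.27 for density, 1.14 for width and 1.61 for covered length. The differences were then 5.34 in shared peaks, 1.46 in peaks within domains and 4.52 over 500 bp.

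The difference in peaks within domains was 3.30 percentage points as reported, -0.0809 with steps of up to 10000 bp and -2.45 with domains of at least 2 peaks, and ran from -0.129 to 6.73 when either replicate was left out. X had a mean of 12 domains per replicate, 24 with domains of at least 2 peaks and 7 with at least 4. The middle 50% of X held 54.5% of its peaks.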
